A study of Mus musculus with 6 samples.

Results

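The genes of cholesterol and fatty acid synthesis were examined in cancer-associated fibroblasts (CAFs), the fibroblasts of a tumour. They comprise 21 genes of sterol synthesis and its control (the sterol arm) and 10 genes of fatty acid synthesis (the fatty acid arm). Members were taken by gene symbol and had to reach a mean CPM (counts scaled to library size) of 1 over the libraries. All 31 did, out of 55401 genes in the table. The lowest was Tm7sf2 at 13.1 CPM, so no member lay near that limit, and all 31 also passed the filter on low counts before testing. The Thbs2KO group held 3 RNA-seq libraries of CAFs from Thbs2KO hosts, and the WT group held 3 libraries of CAFs from wild-type hosts. Thbs2 encodes thrombospondin-2, a secreted matricellular protein. In both groups the tumours were grown from mouse tumour organoids implanted in the rectum, and the isolated fibroblasts were then cultured on fibronectin in a medium with fetal bovine serum. The labels name no strain, age or organoid genotype and do not say whether replicates are mice or cultures. P-values therefore set the difference between groups only against the spread among these libraries, and that spread may be technical. Adjusted p-values are Benjamini-Hochberg values over all tested genes. The knockout is of the host, and the measured cells had been through culture.

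Cells make cholesterol from acetyl-CoA through mevalonate, isoprenoids, squalene and lanosterol, and make fatty acids from the same acetyl-CoA by carboxylation, chain assembly, elongation and desaturation. The membrane-bound transcription factors SREBP2 and SREBP1 (genes Srebf2 and Srebf1) switch on these enzymes. When sterols are scarce, SCAP carries the factors from the endoplasmic reticulum to the Golgi for cleavage, and when sterols are plentiful the INSIG proteins hold them back. SREBP2 acts mainly on the sterol genes and SREBP1c on the fatty acid genes. Srebf1 and Scd1 are also targets of the oxysterol receptor LXR. Serum supplies lipoprotein cholesterol, which lowers SREBP2 activity in cultured cells.

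Totals ran from 19649066 to 20860335 expected counts in Thbs2KO libraries and from 23061568 to 24417464 in WT libraries. As a check of the labels, Thbs2 measured 538.2, 424.7 and 412 CPM in Thbs2KO libraries, against 2327, 4166 and 3705 CPM in WT libraries. Thbs2KO replicates 1 and 2 differed least (chi-square 3.78 per degree of freedom), and every other pair of libraries gave 15.6 to 121.8. Thbs2KO replicate 3 gave 53.0 and 57.8 with its own group and WT replicate 1 gave 68.0 and 68.3 with its own, so both stood apart. The 11 fibroblast markers averaged -0.023, -0.047 and 0.55 in Thbs2KO libraries and -0.066, -0.21 and -0.20 in WT libraries, on a log2 scale relative to the 6 libraries. None passed by edgeR, 1 was higher at p under 0.05 before adjustment, and DESeq2 called 1. Log2 fold changes of these markers were positive for 7 and negative for 4, with a median of 0.25. Col1a1 measured 11335 to 12055 CPM in Thbs2KO libraries and 12144 to 14757 CPM in WT libraries, whereas Dcn measured 352.4, 274.6 and 1004 CPM in Thbs2KO libraries and 323.2, 214.2 and 199.1 CPM in WT libraries. Of 8 adipocyte markers, 5 (Adipoq, Cidec, Cfd, Lep and Retn) had 0 reads in all 6 libraries, and the list summed to 6.70 to 8.61 CPM in Thbs2KO libraries and 7.23 to 10.1 CPM in WT libraries. Plin1 had 3 reads in all. Fabp4 averaged 5.02 CPM in Thbs2KO libraries and 3.73 CPM in WT libraries (log2 fold change 0.43, adjusted p = 0.426 by edgeR). Pparg averaged 2.66 and 4.9 CPM (log2 fold change -0.88, adjusted p = 0.278 by edgeR). The groups did not overlap for Fabp4 or for Pparg.

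SREBPs bind sterol regulatory elements in promoters, often beside NF-Y and Sp1, so promoter windows of a few members are shown. RefSeq windows (GRCm38.p6, 250 bases before to 50 after the annotated start) were given for 24 of the 31 members, in 29 windows. Fads1, Fdft1, Fdps, Scd1, Scd2, Sqle and Stard4 were not matched. Windows are printed for Cyp51, the member that passed the test between groups, for Hmgcs1, which holds the sterol regulatory element searched, and for Insig1 and Hsd17b7, which were added after their values were seen. They lie at chr5:4104648-4104947 (minus strand), chr13:119690101-119690400 (plus), chr5:28071162-28071461 (plus) and chr1:169969156-169969455 (minus). Capitals mark any match, on either strand, to the sterol regulatory element TCACNCCAC, the NF-Y box CCAAT, the Sp1 box GGGCGG or the E-box CACGTG.
Cyp51: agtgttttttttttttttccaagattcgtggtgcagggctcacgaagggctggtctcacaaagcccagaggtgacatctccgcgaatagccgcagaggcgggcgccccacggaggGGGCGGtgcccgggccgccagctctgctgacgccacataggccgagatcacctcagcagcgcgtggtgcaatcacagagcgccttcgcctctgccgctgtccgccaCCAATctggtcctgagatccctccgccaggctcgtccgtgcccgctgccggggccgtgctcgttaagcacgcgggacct
Hmgcs1: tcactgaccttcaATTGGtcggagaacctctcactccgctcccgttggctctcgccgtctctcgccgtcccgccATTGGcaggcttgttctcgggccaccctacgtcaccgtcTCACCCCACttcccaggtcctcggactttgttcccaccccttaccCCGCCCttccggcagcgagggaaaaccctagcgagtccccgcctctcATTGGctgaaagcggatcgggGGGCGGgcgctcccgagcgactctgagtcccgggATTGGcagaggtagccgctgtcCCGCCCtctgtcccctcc
Insig1: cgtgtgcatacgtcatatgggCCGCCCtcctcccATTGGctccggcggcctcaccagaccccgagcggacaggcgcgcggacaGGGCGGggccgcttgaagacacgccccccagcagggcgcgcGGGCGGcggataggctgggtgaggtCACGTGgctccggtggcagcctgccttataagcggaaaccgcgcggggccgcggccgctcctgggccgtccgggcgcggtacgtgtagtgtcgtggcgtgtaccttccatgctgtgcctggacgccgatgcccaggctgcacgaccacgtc
Hsd17b7: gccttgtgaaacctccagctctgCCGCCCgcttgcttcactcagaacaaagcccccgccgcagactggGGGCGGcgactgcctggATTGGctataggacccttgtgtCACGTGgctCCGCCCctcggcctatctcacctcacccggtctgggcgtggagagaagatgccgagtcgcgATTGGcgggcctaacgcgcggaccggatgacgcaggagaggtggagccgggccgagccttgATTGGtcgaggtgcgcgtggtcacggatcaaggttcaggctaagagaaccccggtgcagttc
No 2 of the marked motifs overlap in these windows. The Hmgcs1 window held the sterol element TCACCCCAC from position -137, counted from the RefSeq start, and 4 NF-Y boxes. The Cyp51 window held an NF-Y box from position -29 and an Sp1 box from position -135. The Insig1 window held an E-box from position -101, and the Hsd17b7 window held one from position -143 and 3 NF-Y boxes.

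The sterol element was found in 1 of 29 member windows, against 1.24% of all 32851 RefSeq windows. An NF-Y box was found in 16 of 20 sterol arm windows and in 4 of 9 fatty acid arm windows, against 37.4% of all windows. NF-Y is a CCAAT-binding factor that works beside SREBP on sterol genes. An Sp1 box was found in 17 of 20 sterol arm windows and in 4 of 9 fatty acid arm windows, against 35.7% of all windows, and an E-box in 4 of 20 and 0 of 9, against 7.15%. A match is a match of letters and not a shown binding site. Only these letters were searched, so a window without a match is not shown to lack a sterol element or another of these sites.

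Every member was transcribed in all 6 libraries. On the scale of CPM per kilobase of exon, which allows a rough comparison of levels between genes, the stearoyl-CoA desaturases were the most abundant. The length counts every annotated exon of a gene and can exceed that of the transcript expressed, so ranks on this scale are approximate. Scd2 averaged 474.0 in Thbs2KO libraries and 444.7 in WT libraries, and Scd1 averaged 232.5 and 166.6 CPM per kilobase. Next came Acly, the ATP citrate lyase that makes cytosolic acetyl-CoA, at 114.8 and 108.4 CPM per kilobase, and the delta-6 desaturase Fads2 at 94.6 and 94.7. The most abundant sterol gene per length was Hmgcs1, the HMG-CoA synthase, at 79.6 in Thbs2KO libraries and 90.1 CPM per kilobase in WT libraries. Cyp51 stood at 52.7 and 73.0. The lowest of the 31 were Tm7sf2, a sterol delta-14 reductase (3.38 and 2.58), and Lpin1, the phosphatidic acid phosphatase lipin-1 (3.31 and 3.46 CPM per kilobase).

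**Figure D1:**
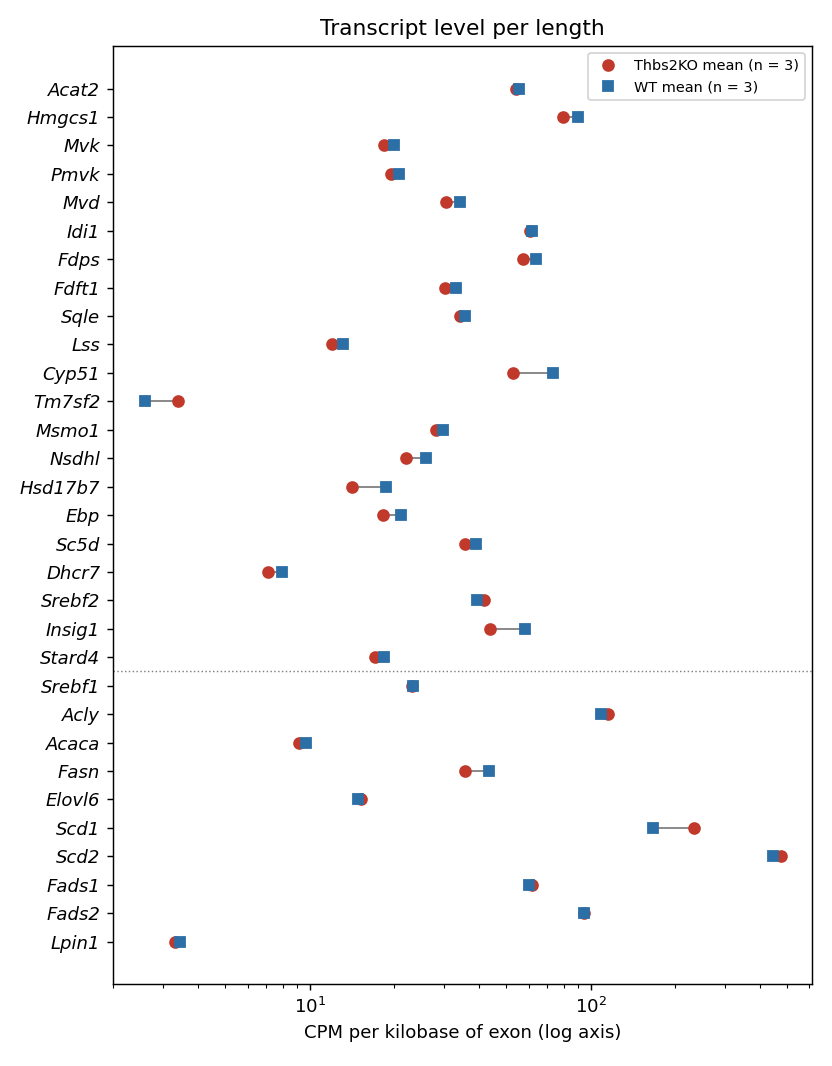
Mean CPM per kilobase of exon (log axis) of each of the 31 members in Thbs2KO (circles) and WT (squares) libraries, n = 3 each, with no error drawn; genes run in pathway order, and the dotted line parts the sterol arm from the fatty acid arm. Scd2 and Scd1 lie highest, and Tm7sf2 and Lpin1 lowest.

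The comparison asks whether the transcripts of lipid synthesis differ between CAFs from Thbs2KO and from WT hosts. Of the 31 members, 1 fell and 0 rose in Thbs2KO (adjusted p below 0.05 by the quasi-likelihood test of edgeR over 13590 genes). Over all tested genes 1.09% passed, 0.537% lower and 0.552% higher. At an unadjusted p under 0.05, 3 members were lower and 1 was higher, with 7.56% and 5.72% over all genes, and DESeq2 called 2 lower and 1 higher, with 2.93% and 2.21% over all genes. Groups did not overlap for 8 members with lower values and 1 with higher values in Thbs2KO, with 10.3% and 9.37% over all genes. Log2 fold changes (Thbs2KO over WT) were negative for 19 of 21 sterol arm genes and for 5 of 10 fatty acid arm genes, against 50.9% of all genes. Their medians were -0.14 in the sterol arm and 0.016 in the fatty acid arm, and -0.0038 over all genes. Without Thbs2KO replicate 3 the sterol arm median was -0.077 and the fatty acid arm median 0.13. These counts and medians are descriptions of chosen genes and carry no test.

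**Figure D2:**
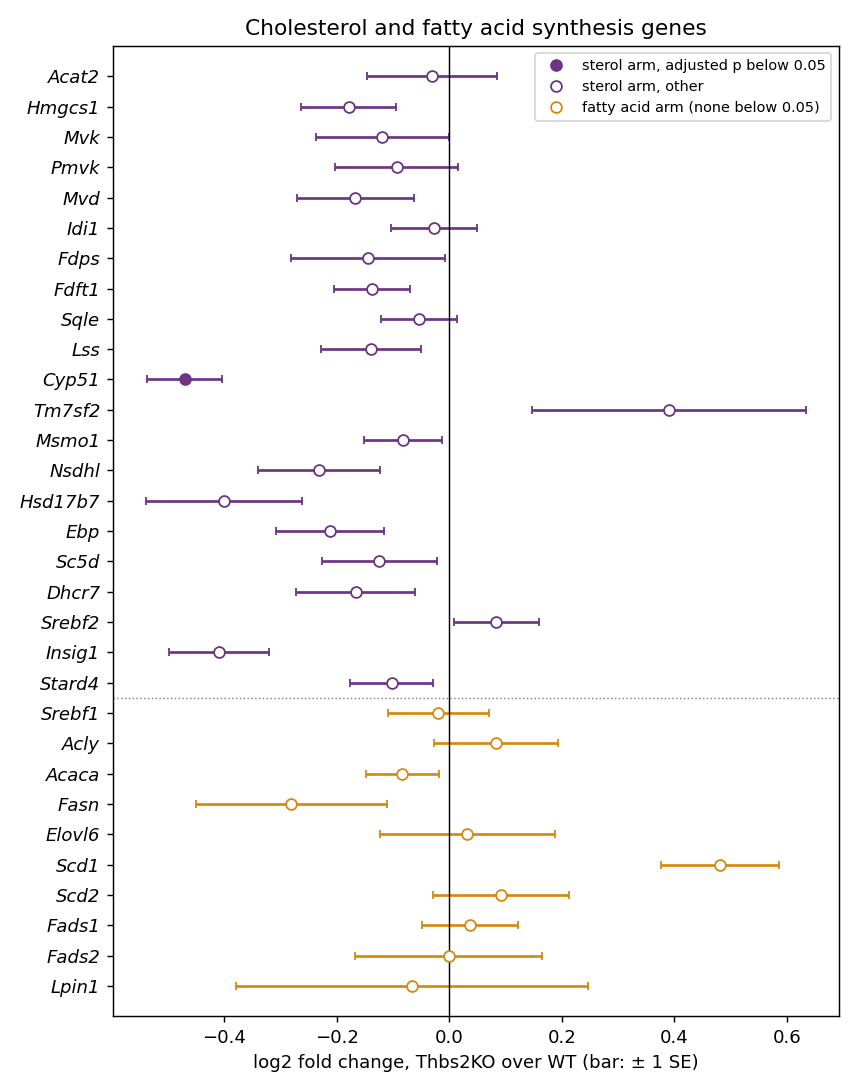
Log2 fold change (Thbs2KO over WT, horizontal axis) with its standard error for each member, from edgeR on 3 libraries per group; filled points passed an adjusted p of 0.05. Cyp51 is the only filled point, and 19 of the 21 sterol arm points lie left of 0.

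Cyp51, the lanosterol 14-alpha-demethylase, measured 227.1, 234.9 and 236.3 CPM in Thbs2KO libraries, against 310.7, 329.7 and 327.1 CPM in WT libraries. The groups lay well apart, and the spread within each group was small beside the gap, with coefficients of variation of 2.12% and 3.18%. Its level fell to 0.722 times that of WT (log2 fold change -0.47, SE 0.066; adjusted p = 0.0322 by edgeR). With each library left out in turn the log2 fold change ran from -0.50 to -0.44, but the call held only without WT replicate 1 (adjusted p = 0.0275 by edgeR). It was lost without Thbs2KO replicate 1, 2 or 3 (adjusted p = 0.211, 0.155 and 0.0552 by edgeR) and without WT replicate 2 or 3 (0.129 and 0.159). It was also lost with the alike Thbs2KO replicates 1 and 2 summed into 1 sample (adjusted p = 0.174 by edgeR). The gene lies on chromosome 5 (4081145 to 4104746, minus strand, mm10), and 166 bases of its exons overlap those of the antisense gene Akap9. The kit does not mark strand, so strand cannot tell from which gene reads of that stretch came. The expected counts of Akap9 were whole numbers in every library, so no division of reads by estimate shows in them. Akap9, a scaffold protein of the centrosome and Golgi, measured 52.0, 51.7 and 45.9 CPM in Thbs2KO libraries and 61.1, 61.3 and 63.8 CPM in WT libraries, and the part of the overlap in the Cyp51 result was not tested.

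Relative to neighbours in the pathway, Cyp51 was lower in Thbs2KO libraries than in WT libraries. The ratio of Cyp51 to Msmo1, the methylsterol oxidase that acts after it, was 1.34, 1.33 and 1.37 in Thbs2KO libraries and 1.69, 1.72 and 1.89 in WT libraries. The ratio of Cyp51 to Sqle, the squalene epoxidase before it, was 1.22, 1.21 and 1.24 in Thbs2KO libraries and 1.59, 1.59 and 1.72 in WT libraries. These ratios were chosen after the values were seen, and the groups do not overlap in either. They are ratios of CPM within a library and show unequal change, not levels per length. Msmo1 and Sqle had log2 fold changes of -0.082 and -0.054, so the ratios largely restate the difference in Cyp51.

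Among the regulators, Insig1 and Srebf2 had log2 fold changes of opposite sign. Insig1, the sterol-sensing retention protein that is itself an SREBP target, measured 130.8, 149.5 and 127 CPM in Thbs2KO libraries and 191.2, 178.2 and 171.5 CPM in WT libraries. The groups did not overlap, with a log2 fold change of -0.41 (SE 0.089; adjusted p = 0.104 by edgeR; DESeq2 adjusted p = 0.00704), so edgeR did not call it. Srebf2 measured 286.3, 300.6 and 312.4 CPM in Thbs2KO libraries and 299.8, 275.9 and 272.8 CPM in WT libraries, which overlap. Its log2 fold change was 0.084 with an SE of 0.075 (adjusted p = 0.732 by edgeR). Stard4, a cytosolic sterol carrier, had a log2 fold change of -0.10.

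Of the 7 genes that lead from acetyl-CoA to farnesyl pyrophosphate, 0 passed by edgeR, 0 by DESeq2 and 0 had an unadjusted p under 0.05. All 7 log2 fold changes were negative, from -0.18 for Hmgcs1 to -0.027 for Idi1, the isopentenyl diphosphate isomerase. Hmgcs1 measured 359.5, 366.6 and 370.6 CPM in Thbs2KO libraries and 445.1, 420.3 and 375.8 CPM in WT libraries. The lowest WT library lay close to the highest Thbs2KO library, although the groups did not overlap. Mvd, the mevalonate diphosphate decarboxylase, was the other of these 7 whose groups did not overlap, with a log2 fold change of -0.17. Fdps, the farnesyl pyrophosphate synthase, measured 260.4, 273.5 and 192 CPM in Thbs2KO libraries and 264.8, 275.9 and 261.7 CPM in WT libraries, and its low value in Thbs2KO replicate 3 set the wide spread of that group. Idi1 measured 215, 206.2 and 217.6 CPM in Thbs2KO libraries and 211.9, 233.3 and 205.6 CPM in WT libraries, which overlap. Mvk, Pmvk and the acetoacetyl-CoA thiolase Acat2 had log2 fold changes of -0.12, -0.094 and -0.030.

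The 3 genes from farnesyl pyrophosphate to lanosterol had log2 fold changes of -0.14 (Fdft1, squalene synthase), -0.054 (Sqle) and -0.14 (Lss, lanosterol synthase). Fdft1 measured 129.8, 132.5 and 120.4 CPM in Thbs2KO libraries and 141.2, 141.6 and 138.3 CPM in WT libraries, which do not overlap. Sqle measured 186.8, 193.6 and 190.2 CPM in Thbs2KO libraries and 196, 206.7 and 189.7 CPM in WT libraries, which overlap. The exons of Fdft1 share 774 bases with the antisense gene Ctsb, a lysosomal protease at 638.5 to 1134 CPM, and strand cannot tell the origin of reads there. The expected counts of Ctsb were whole numbers in every library, so no division of reads by estimate shows in them. Ctsb was highest in Thbs2KO replicate 3, the library in which Fdft1 was lowest.

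Log2 fold changes were negative for 7 of the 8 genes from lanosterol to cholesterol (median -0.19), and Cyp51 passed the test. The 8 together summed to 786.3, 807.2 and 844.3 CPM in Thbs2KO libraries and 1005, 974.4 and 931 CPM in WT libraries, which do not overlap. Hsd17b7, a 3-ketosteroid reductase, measured 65.4, 72.1 and 78.8 CPM in Thbs2KO libraries and 114.2, 88.6 and 82.8 CPM in WT libraries. The groups did not overlap, and WT replicate 1 alone exceeded 100 CPM (log2 fold change -0.40, SE 0.139, adjusted p = 0.279 by edgeR). Without WT replicate 1 the log2 fold change was -0.25. Ebp, the sterol delta-8,delta-7 isomerase, measured 45.2, 43.1 and 37.8 CPM in Thbs2KO libraries and 47, 52.5 and 46.6 CPM in WT libraries. Its groups did not overlap either, at a log2 fold change of -0.21. Sc5d, the sterol C5-desaturase, measured 161.5, 163.5 and 196.1 CPM in Thbs2KO libraries and 204, 181.9 and 182.2 CPM in WT libraries, which overlap. Nsdhl, Dhcr7, Sc5d and Msmo1, enzymes of the same stretch, had log2 fold changes of -0.23, -0.17, -0.12 and -0.082, with overlapping groups.

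Tm7sf2 was the other way round, with 14.2, 13 and 17.6 CPM in Thbs2KO libraries and 15.6, 9.77 and 8.76 CPM in WT libraries (log2 fold change 0.39, SE 0.243, adjusted p = 0.585 by edgeR). WT replicate 1 lay among the Thbs2KO libraries, and the log2 fold change ran from 0.23 without WT replicate 3 to 0.69 without WT replicate 1, with 0.26 without Thbs2KO replicate 3. Tm7sf2 shares 532 exonic bases with its neighbour Vps51, which is at 19.5 to 24.4 CPM, so its count depends on how shared reads were divided.

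**Figure D3:**
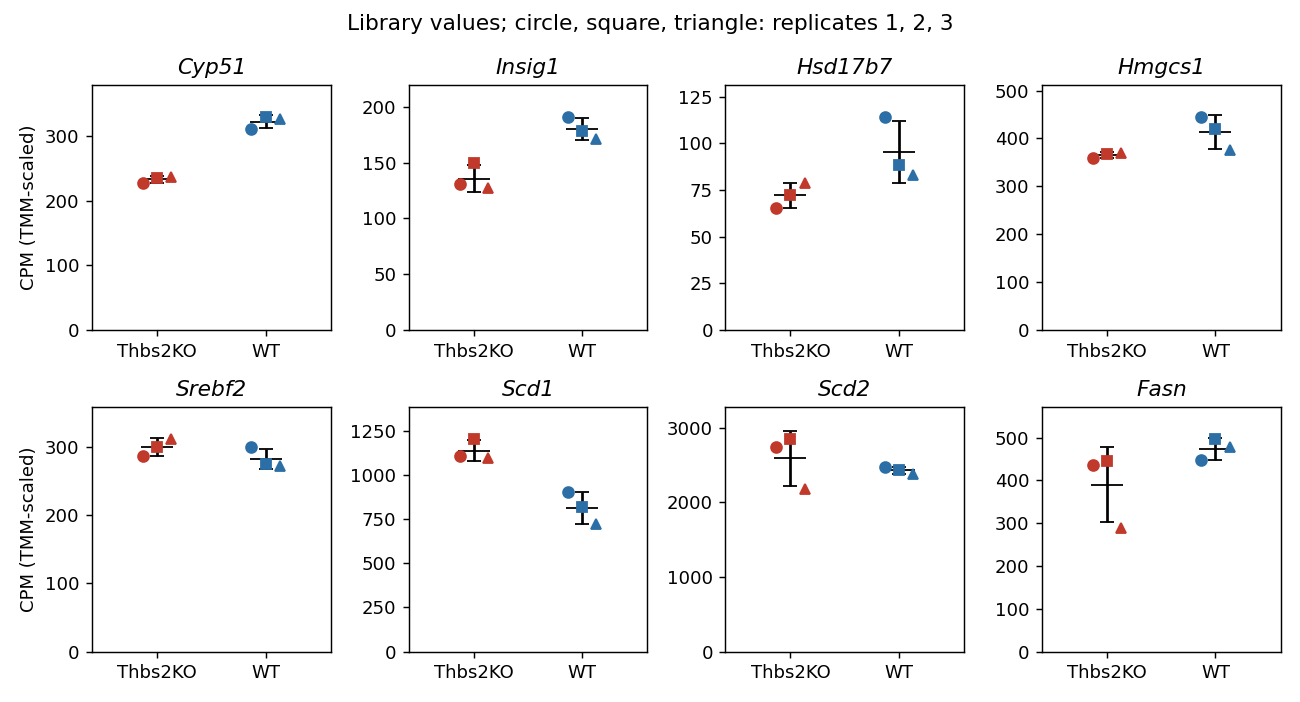
CPM of 8 members in each Thbs2KO (left) and WT (right) library, with bars for the mean and SD (n = 3 each); every vertical axis starts at 0. Thbs2KO points lie below all WT points for Cyp51, Insig1, Hsd17b7, Hmgcs1 and Fasn, and above them for Scd1.

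In the fatty acid arm 0 genes passed by edgeR, 1 reached p under 0.05 unadjusted, and DESeq2 called 1. The member with the smallest p was Scd1, the stearoyl-CoA desaturase that makes oleate and palmitoleate. It measured 1107, 1206 and 1099 CPM in Thbs2KO libraries, against 902.8, 818.6 and 723.2 CPM in WT libraries. All 3 Thbs2KO libraries lay above all 3 WT libraries, with a log2 fold change of 0.48 (SE 0.105; adjusted p = 0.104 by edgeR; DESeq2 adjusted p = 0.00117). It passed by edgeR without WT replicate 1 (adjusted p = 0.0471) and with no other single library left out (0.148 to 0.312). Its paralog Scd2 measured 2741, 2854 and 2175 CPM in Thbs2KO libraries and 2468, 2440 and 2381 CPM in WT libraries, with Thbs2KO libraries both above and below the WT range. The share of Scd1 in the sum of Scd1 and Scd2 counts was 28.8%, 29.7% and 33.6% in Thbs2KO libraries and 26.8%, 25.1% and 23.3% in WT libraries, and the groups do not overlap. That share was computed after the values were seen. A short Scd1 transcript is 95.5% identical to Scd2 over 623 bases, so some reads were divided between the paralogs by estimate.

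Fasn, the fatty acid synthase, measured 435.7, 445.3 and 289.3 CPM in Thbs2KO libraries and 447.1, 497.8 and 477.2 CPM in WT libraries. The groups did not overlap, but Thbs2KO replicates 1 and 2 lay just under the lowest WT library, and the log2 fold change of -0.28 had an SE of 0.170 (adjusted p = 0.568 by edgeR). Without Thbs2KO replicate 3 it was -0.11. Acly measured 609.4, 662 and 546.7 CPM in Thbs2KO libraries and 626.1, 577.3 and 513.2 CPM in WT libraries, which overlap. Acly and the acetyl-CoA carboxylase Acaca, the other chain-building genes, had log2 fold changes of 0.083 and -0.083. Srebf1, which encodes SREBP1, measured 134, 137.1 and 117.7 CPM in Thbs2KO libraries and 141.3, 123.6 and 129.3 CPM in WT libraries, with overlapping groups and a log2 fold change of -0.020. The counts do not separate its SREBP1a and SREBP1c transcripts.

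Fads2, with Fads1 the pair of desaturases for polyunsaturated fatty acids, measured 344.9, 359.4 and 231.2 CPM in Thbs2KO libraries and 317.1, 318 and 301.1 CPM in WT libraries. Thbs2KO replicates 1 and 2 lay above the WT libraries and replicate 3 below them. Fads1 and the elongase Elovl6 overlapped between groups and had log2 fold changes of 0.037 and 0.032. Lpin1 measured 27.3, 29.6 and 39 CPM in Thbs2KO libraries and 50.2, 28.3 and 21.8 CPM in WT libraries, and thus varied more within WT than between the groups.

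Single libraries carried much of the variation among members. Thbs2KO replicate 3 was the lowest of the 6 libraries for 17 of 31 members, 7 of them among the 10 fatty acid arm genes, while it was lowest for 25.8% of all tested genes. WT replicates 1 and 2 were each the highest library for 11 members, and for 20.02% and 13.92% of all genes. The coefficient of variation over replicates had a median of 11.8% in Thbs2KO libraries and 6.14% in WT libraries for the fatty acid arm, and of 8.48% and 6.70% for the sterol arm. The 12 cell cycle genes, as the mean of log2(CPM + 0.5) minus each gene's own mean, stood at 0.24, 0.28 and -0.53 in Thbs2KO libraries and -0.32, 0.11 and 0.22 in WT libraries. Thbs2KO replicate 3 and WT replicate 1 were the lowest libraries there, while among the members WT replicate 1 was lowest for 0. The part of the cell cycle genes in the members' levels was not tested.

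**Figure D4:**
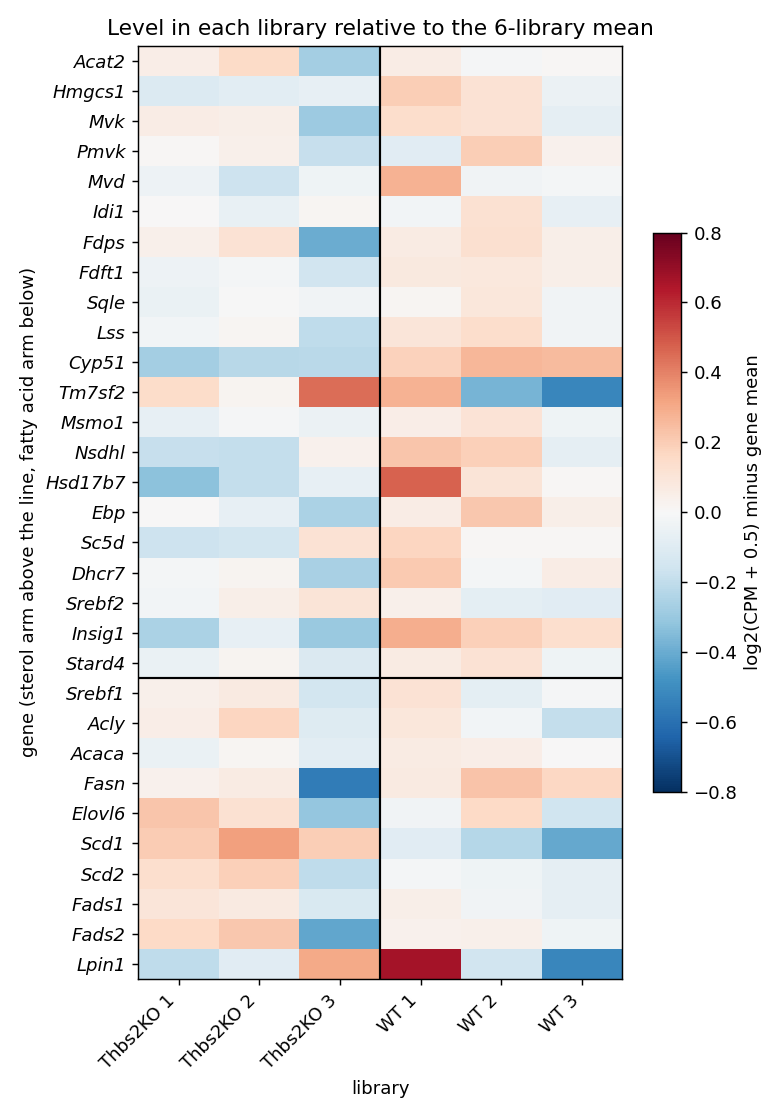
Level of each member (rows, pathway order) in each library (columns, Thbs2KO left of WT) as log2(CPM + 0.5) minus the gene's mean over the 6 libraries. The darkest blue cells of Thbs2KO replicate 3 are Fasn, Fads2 and Fdps, and the reddest cells of WT replicate 1 are Lpin1 and Hsd17b7.

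The arms were set side by side per library. On that relative log2 scale the sterol arm stood at -0.062, -0.034 and -0.10 in Thbs2KO libraries and 0.14, 0.081 and -0.017 in WT libraries, which do not overlap. The fatty acid arm stood at 0.068, 0.12 and -0.14 in Thbs2KO libraries and 0.096, -0.0063 and -0.13 in WT libraries, which overlap. The sterol arm minus the fatty acid arm was -0.13, -0.15 and 0.041 in Thbs2KO libraries and 0.041, 0.087 and 0.11 in WT libraries, so the highest Thbs2KO library and the lowest WT library were nearly level. Counts of all sterol arm genes summed to 2874, 2963 and 2828 CPM in Thbs2KO libraries and 3310, 3255 and 3058 CPM in WT libraries. Those of the fatty acid arm summed to 5979, 6268 and 4995 CPM in Thbs2KO libraries and 5517, 5365 and 5072 CPM in WT libraries. In such bulk samples, fewer cells of a type and less RNA per cell cannot be told apart.

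Epithelial markers were scarce and lower in sum in every Thbs2KO library than in any WT library. All 6 tested markers of the 8 had negative log2 fold changes, and the list summed to 7.19, 7.93 and 9.53 CPM in Thbs2KO libraries and 19.8, 20.9 and 26.2 CPM in WT libraries. By edgeR 0 markers passed, 2 were lower at p under 0.05 before adjustment, and DESeq2 called 2 lower. Krt19, an epithelial keratin, measured 5.77, 6.21 and 3.57 CPM in Thbs2KO libraries and 14.6, 9.86 and 13.8 CPM in WT libraries (log2 fold change -1.30, adjusted p = 0.0790 by edgeR; DESeq2 adjusted p = 0.000314). Krt20, an intestinal keratin, had a log2 fold change of -2.65 (adjusted p = 0.0803 by edgeR; DESeq2 adjusted p = 0.00124). Epcam was at 0.294 to 1.17 CPM in Thbs2KO libraries and 0.646 to 1.80 CPM in WT libraries, and Vil1 and Cldn7 were under 0.5 CPM in every library. The part of these markers in the sterol arm values was not tested. Leaving out WT replicate 1 together with Thbs2KO replicate 3, the sterol arm median was -0.073 and the fatty acid arm median 0.17. In that fit 3 members fell (Cyp51, Hsd17b7 and Insig1) and 3 rose (Tm7sf2, Scd1 and Scd2; adjusted p below 0.05 by edgeR), with 6.37% of all 13617 genes lower and 4.78% higher.

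**Figure D5:**
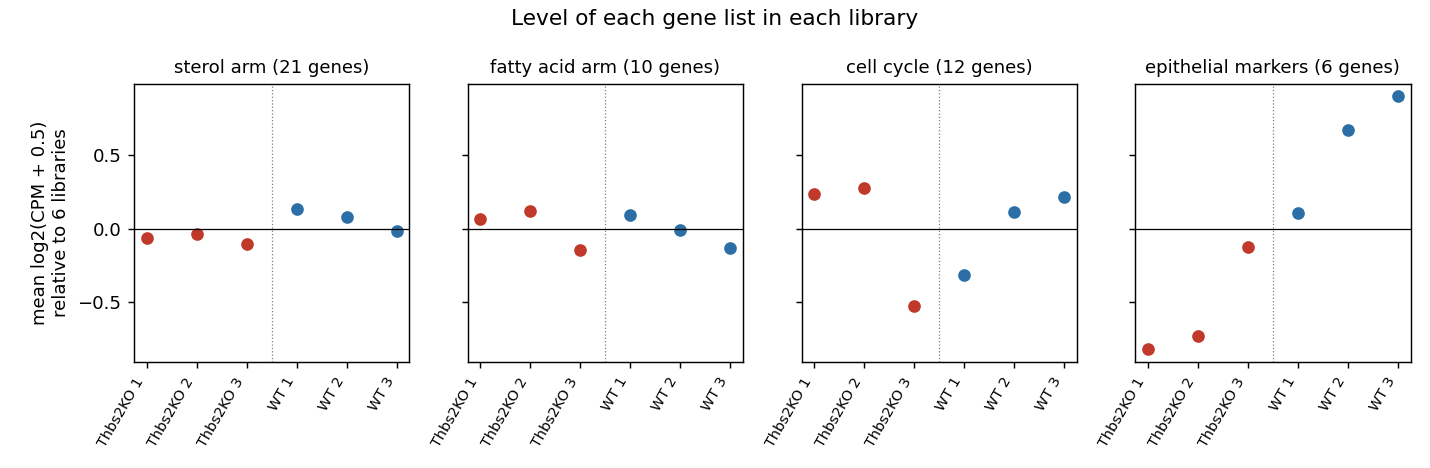
Mean log2(CPM + 0.5) relative to the 6-library mean, in each library, for the sterol arm, the fatty acid arm, the cell cycle genes and the epithelial markers, with Thbs2KO libraries left of the dotted line and WT libraries right of it. All Thbs2KO points lie below all WT points for the sterol arm and the epithelial markers only.

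Other genes of these pathways were taken from lists chosen with earlier results of these data known. In the list of SREBP transport, processing and sterol sensing, 0 of 12 genes passed by edgeR, 1 was higher before adjustment (p under 0.05), and DESeq2 called 0. The median log2 fold change was 0.070. Mbtps2, the site-2 protease that releases SREBP, measured 37.9, 37.5 and 38.4 CPM in Thbs2KO libraries and 29.3, 34.1 and 32.3 CPM in WT libraries, which do not overlap (log2 fold change 0.25, adjusted p = 0.260 by edgeR). Of 11 genes in the isoprenoid branches, 0 passed by edgeR, 0 reached p under 0.05 unadjusted, and calls by DESeq2 numbered 0, with log2 fold changes of 0.22 for Ggps1, the geranylgeranyl diphosphate synthase, and -0.47 for Pdss1, a subunit that makes the ubiquinone side chain.

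Among 20 tested genes of 24 in other elongation, desaturation and activation, 0 passed by edgeR, 2 were lower and 1 higher before adjustment (p under 0.05), and DESeq2 called 1. The one was Acsl3, an acyl-CoA synthetase of lipid droplets, with 84.8, 91 and 92.7 CPM in Thbs2KO libraries and 77.7, 72.3 and 69.6 CPM in WT libraries (log2 fold change 0.29, adjusted p = 0.148 by edgeR; DESeq2 adjusted p = 0.0361). Aacs, the acetoacetyl-CoA synthetase that feeds sterol synthesis, measured 134.7, 146.4 and 130.5 CPM in Thbs2KO libraries and 159.3, 167.2 and 157 CPM in WT libraries, which do not overlap, at a log2 fold change of -0.23.

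Of 8 tested genes among LXR and its targets, 0 passed by edgeR, 0 reached p under 0.05 unadjusted, and calls by DESeq2 numbered 0. Log2 fold changes were negative for 4 and positive for 4, from -0.26 to 0.64, with a median of -0.0028. The 2 genes with the smallest p were the transporter Abcg2, at -0.26, and Nr1h2, which encodes LXR-beta, at -0.18. The 9 genes of cholesterol transport and esterification likewise had 0 calls by edgeR, 0 at an unadjusted p under 0.05 and 0 by DESeq2, with log2 fold changes of -0.093 for the oxysterol-binding protein Osbp and 0.10 for Npc1, the lysosomal cholesterol exporter.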

How the data were processed

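RNA-seq was measured in 6 libraries, 3 Thbs2KO and 3 WT. The authors deposited unscaled expected counts per gene. The submitters' processing notes name RSEM, the aligner STAR 2.7.3a, Trimmomatic 0.39 and the build mm10, and no annotation release was stated. RSEM divides reads that match several genes by an estimate. Over all genes, those with 0 counts included, 3.80% to 3.88% of values per library were not whole, so values were rounded. Per the labels' protocols, libraries were made with a kit that does not mark strand.

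Genes passing filterByExpr (13590 of 55401) were scaled by TMM, which also gives the CPM, and tested for Thbs2KO over WT with the quasi-likelihood test of edgeR 4.0.16 in R 4.3.3 (robust, genotype only, Benjamini-Hochberg adjustment over all tested genes, threshold 0.05). Standard errors were derived from the F statistic, and errors of CPM are SD over 3 libraries. DESeq2 1.42.0 and limma-voom (limma 3.58.1) were alternatives, beside other scalings, filters, a replicate block and left-out libraries. The edgeR step was tested on simulated counts with 50 genes changed at each of several folds. It called 8 of the 50 changed 1.5-fold, 41 of the 50 changed 2-fold, and 19 unchanged genes. Changes of 1.5-fold were thus mostly missed there, so a gene that did not pass is not shown to be unchanged. Positions and exon lengths come from GENCODE M21, which places all 31 members; near copies were sought with BLAST+ 2.17.0 (90% identity or more, 50% or more of the copy aligned), and promoter sequences come from RefSeq (GRCm38.p6). Beside Scd1 with Scd2 and Tm7sf2 with Vps51, the members whose most counted near copy held over 0.1% as many reads were Acaca, Acat2, Idi1 and Fdps (2.78%, 1.06%, 1.58% and 0.225%).

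The members and lists were chosen with earlier results of these data known. Every member is named or counted; those with an adjusted p under 0.05, those with an unadjusted p under 0.05 and groups that do not overlap, and the most abundant per length have values in every library, and further members with such values were chosen after their values were seen. Of the other lists, up to 3 genes that passed the test, or else the 2 with the smallest p, are named, except 1 gene that is not reported here. The markers of macrophages (4 tested of 7, 8.17 to 19.5 CPM summed per library) and endothelium (2 tested of 6, 11.7 to 50.5 CPM) gave 0 calls by edgeR and by DESeq2, and 0 genes at p under 0.05 before adjustment, as did the cell cycle genes. Of the adipocyte markers 2 were tested, with 0 calls by either tool and 1 lower at p under 0.05 before adjustment.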

Additional observations from a re-analysis of the deposited data

How the results depend on the processing

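The number of members that fell was 1 under RLE and upper-quartile scaling, no filter, a stricter filter, limma-voom and no robust estimation. It was 2 by DESeq2, 0 with a replicate block, 0 with Thbs2KO replicates 1 and 2 summed, 3 with WT replicate 1 and Thbs2KO replicate 3 both left out, and 0 to 1 with 1 library left out. The number that rose was 1 by DESeq2, 3 with both of those libraries left out, and 0 to 1 with 1 library left out. Over all genes 73 were lower and 75 higher, against 398 and 301 by DESeq2, 10 and 20 with the replicate block, 12 and 28 with the summed libraries, 868 and 651 with both libraries left out, and 13 to 251 lower and 25 to 146 higher with 1 left out. The block cost the call of Cyp51 (log2 fold change -0.47, adjusted p = 0.226 by edgeR). Same-numbered libraries deviated from their group means with correlations of -0.34, 0.22 and -0.39 over genes, and WT replicate 2 was the only library to correlate best with its own number, so the numbers are not shown to pair them. With both libraries left out, which kept the most alike pair of each group, the medians were -0.073 (sterol arm) and 0.17 (fatty acid arm). With 1 left out, that of the sterol arm ran from -0.17 to -0.077 and that of the fatty acid arm from -0.029 to 0.13. Some uncalled log2 fold changes changed sign, and the cause was not tested. Fads2 was 0.0045 under RLE, 0.0058 under upper-quartile scaling, 0.020 without a filter, 0.0045 by DESeq2 and 0.19 with both libraries left out. Lpin1 was 0.0070 by limma-voom, 0.0053 with the replicate block, 0.0080 with the summed libraries and 0.18 with both left out. Srebf1 was 0.00034 without a filter and 0.10 with both left out, Mvk and Acat2 were 0.027 and 0.11 with both left out, and Elovl6 was -0.044 with the summed libraries. With 1 library left out, ranges were -0.11 to 0.17 for Fads2, -0.30 to 0.35 for Lpin1, -0.061 to 0.046 for Srebf1, -0.12 to 0.086 for Acat2, -0.073 to 0.18 for Elovl6, -0.0015 to 0.10 for Fads1 and -0.065 to 0.041 for Idi1. All members had 8.76 CPM or more in every library, and 1 CPM stood for 20.4 to 23.9 reads.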

Other observations

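Fatty acid oxidation and triglyceride synthesis, the pathways that use or store the products, were measured from 2 further lists. Of 15 tested oxidation genes 0 passed by edgeR, 2 were higher before adjustment (p under 0.05), and DESeq2 called 0. Acadl, the long-chain acyl-CoA dehydrogenase, measured 61.9, 65 and 74.3 CPM in Thbs2KO libraries and 56.7, 48.2 and 53 CPM in WT libraries, which do not overlap (log2 fold change 0.35, adjusted p = 0.193 by edgeR). Acaa2, a thiolase of mitochondrial oxidation, had a log2 fold change of 0.37 with overlapping groups. Of 15 genes for triglyceride synthesis and lipid droplets 0 passed by edgeR, 1 was higher before adjustment (p under 0.05), and DESeq2 called 1 higher. That gene was Lpin2, which encodes a phosphatidic acid phosphatase related to lipin-1. It measured 22.6, 24.7 and 29.5 CPM in Thbs2KO libraries and 19.6, 17.3 and 18 CPM in WT libraries (log2 fold change 0.48, adjusted p = 0.148 by edgeR; DESeq2 adjusted p = 0.0324). Agpat4, an acyltransferase, had a log2 fold change of -0.17.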
